A study of Gossypium barbadense and Gossypium hirsutum with 8 samples.

Results

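The 3 low-yielding inbred cotton lines were compared with their low-yielding parent, Giza75, a variety of Gossypium barbadense, in fibre collected 10 days post anthesis (10 days after flowering). A probe set (the group of short probes on the array that reads 1 transcript sequence) was a member of the comparison where LY1, LY2 and LY3 all differed from the parent array, LYP, in the same direction by at least 1 log2 unit, which is 2-fold. Of 14417 probe sets left after the filter on low signals, 539 were members: 330 were higher and 209 were lower in all 3 lines. The lines were NMGA066 (LY1), NMGA095 (LY2) and NMGA023 (LY3), backcross inbred lines of a cross between Gossypium hirsutum and G. barbadense, with 1 array each, as LYP had. The 4 other arrays of the series, 3 high-yielding lines of the same cross (HY1, HY2 and HY3) and the high-yielding G. hirsutum parent SG747 (HYP), entered the normalization and are given where they place the members. All 8 arrays carried RNA from fibre stripped from ovules, with no treatment named in the labels. Each line is 1 genotype read once, so the spread among the 3 lines holds genotype, sample preparation and array together. With 1 array of the parent there is no error estimate for LYP and no p-value for this comparison.

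Cotton fibres are single cells that grow out of the seed coat. In the elongation phase they lengthen through turgor and loosening of the primary wall, before cellulose is laid down in the secondary wall. Both cultivated species of the cross are allotetraploids with an A and a D subgenome. G. raimondii is a living diploid relative of the D-genome donor and G. arboreum of the A-genome donor. The cotton array holds probe sets designed from sequences of these 4 species, and the start of each identifier names the design species. A probe set designed on 1 species can hybridize less well to the transcript of another, and this was not tested. No probe set could be paired with a gene: 0 identifiers matched the 74561 genes of a G. barbadense annotation. The fibre label could therefore not be checked against marker genes, and probe sets are given by identifier, signal and design species.

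The arrays differed in brightness. The median deposited signal was 17.0 in LYP, 36.3 in LY1, 30.5 in LY2 and 13.2 in LY3, so LY1 and LY2 were the bright arrays and LY3 was close to the parent. The 5′ to 3′ signal ratio of the ss1 control, a sign of RNA integrity, was 0.345 in LYP and 0.428, 0.324 and 0.271 in LY1, LY2 and LY3. That of the ubq11 control was 0.584 in LYP and 0.598, 0.481 and 0.381 in the lines. That of the actin control was 0.148 in LYP and 0.157, 0.174 and 0.156 in the lines. No pair of the 4 arrays had more than 0.982% of its values in common. Quantile normalization gave the arrays the same distribution, and folds below are on that normalized log2(signal + 16) scale. Adding 16 shrinks the fold between dim signals, and the normalization moves folds as well. The signals are the deposited ones.

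The members higher in the lines made up 2.29% of all tested probe sets and the members lower in the lines 1.45%. These shares are the rule itself and say nothing more about the members. The median difference of the lines' mean from LYP was 1.92 log2 units for the members higher in the lines and -1.67 for those lower, against 0.0011 over all tested probe sets. At least 4-fold in all 3 lines, 71 members were higher and 15 lower. At least 8-fold there were 19 and 2. At least 32-fold there were 3 and 1. The higher side therefore held 82.6% of the members at 4-fold and 61.2% at 2-fold. Just inside the threshold, the last member higher in the lines had a smallest difference of 1.0002 log2 units (signal 7.10 in LYP and 74.6, 47.8 and 23.4 in the lines), and the first probe set outside had 0.9992 (2.90 in LYP and 40.4, 47.4 and 28.9). On the lower side the last member had 1.009 (191.5 in LYP and 142.9, 102.8 and 64.9 in the lines) and the first outside 0.9997 (535.8 and 221.7, 281.0 and 192.4). The deposited signals lay on the members' side of LYP in all 3 lines for all 539. They were at least 2-fold apart in fewer: 304 of 330 in LY3 on the higher side, and 139 and 134 of 209 in LY1 and LY2 on the lower side.

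**Figure D1:**
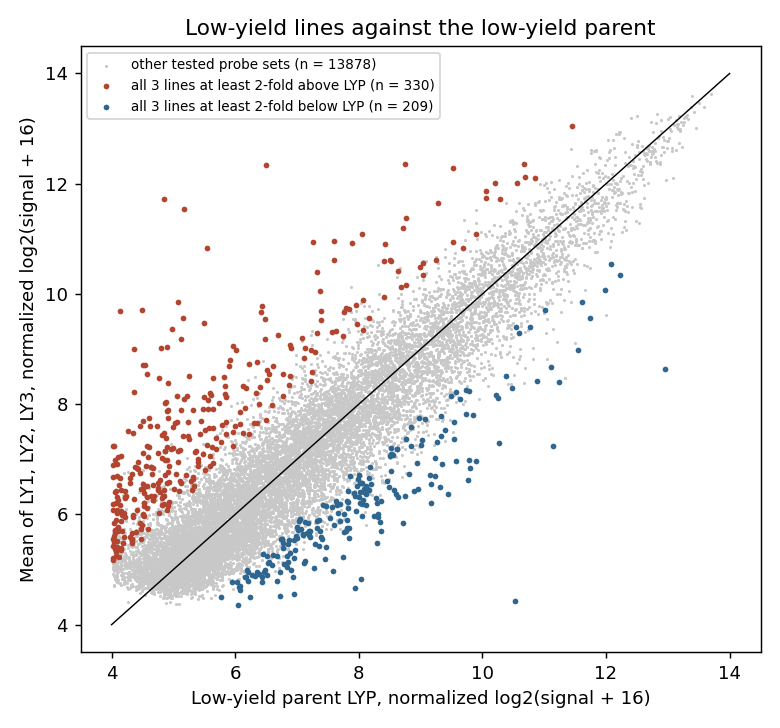
Normalized log2(signal + 16) of the low-yield parent (horizontal axis) against the mean of LY1, LY2 and LY3 (vertical axis), 1 point per tested probe set, with the diagonal of equal levels. The 330 members higher in the lines lie above the diagonal, many of them at the low end of the parent's scale, and the 209 members lower in the lines lie below it.

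Leaving out LY3, the remaining lines shared 1142 probe sets above and 1163 below LYP. Without normalization the counts were 339 and 132, which made the higher side 72.0% of the members, and the median difference over all tested probe sets was then 0.39 log2 units. Under all 4 scalings tried (quantile normalization over 8 or 4 arrays, median centring, none), 217 of the 330 and 83 of the 209 were members.

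The rule used the LYP signal, and a probe set dim in LYP passed the filter through the arrays where it was brighter, so the parent's level in the members higher in the lines is a description. LYP had a signal under 16 for 181 of the 330 (54.8%), against 16.3% of all tested probe sets. The median LYP signal over the 330 was 13.2. The lines' mean signal over the same 330 ranged from 25.7 to 9081, with a median of 195. Whether such a low signal stood above background cannot be read from these values, as no detection calls were used here. A low signal does not show that a transcript was missing. In bulk fibre, fewer cells of a type and less RNA per cell cannot be told apart.

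Gra.207.1.A1_s_at, designed from a G. raimondii sequence, was the member with the largest smallest difference on the higher side. Its signal was 10.9 in LYP and 4964, 2158 and 4498 in LY1, LY2 and LY3. It was bright in every other array as well: 1049, 3712 and 1438 in HY1, HY2 and HY3 and 1842 in HYP. LYP stood alone, and the lines' mean difference was 6.87 ± 0.95 log2 units (SD, n = 3 lines). Its size depended on the pseudocount, with 7.96 at 1 and 5.48 at 64.

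Ghi.8291.1.S1_s_at, designed from a G. hirsutum sequence, came next. Its signal was 58.2 in LYP and 6466, 8047 and 2771 in LY1, LY2 and LY3. HY1, HY2 and HY3 had 3541, 6889 and 3847 and HYP had 6093. All 7 other arrays lay far above LYP, and the lines differed from it by 5.84 ± 0.52 log2 units (SD, n = 3 lines).

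Over the first 10 members of the higher side the LYP signal ran from 1.20 to 58.2 and the signal of any line from 235 to 8500. A group of 30 members, picked on these values, had a LYP signal under 16 and at least 100 in every low-yield line. These 30 included 27 G. hirsutum designs. Such designs made up 90.9% of the 330 members higher in the lines and 81.7% of all tested probe sets. The median signal of the 30 was 8.65 in LYP and 281, 330 and 211 in LY1, LY2 and LY3. HYP had a median of 436 for them, and the high-yield lines 286, 323 and 283. The levels in HYP and the high-yield lines were not part of that choice.

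Other members on the higher side were bright in LYP too. LYP had at least 100 for 54 of the 330 (16.4%) and at least 1000 for 7 (2.12%), against 39.0% and 7.64% of all tested probe sets. The member with the highest mean signal over the 4 arrays, a G. hirsutum design, had 2685 in LYP and 8528, 12220 and 6495 in LY1, LY2 and LY3. That was a difference of 1.60 ± 0.22 log2 units (SD, n = 3 lines), and HYP had 9715.

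**Figure D2:**
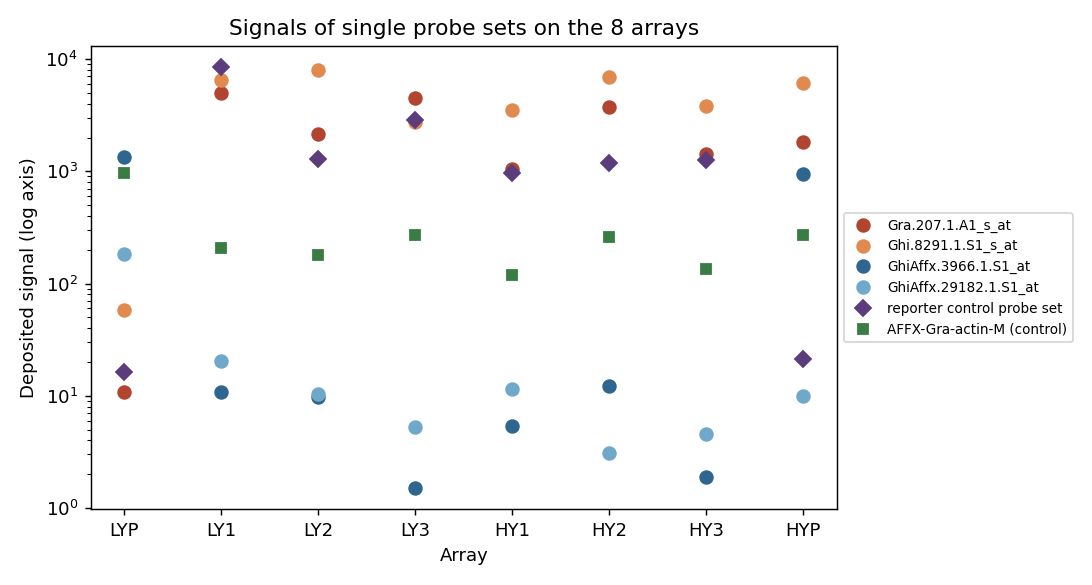
Deposited signal (vertical log axis) on each of the 8 arrays for the 4 identified members, 1 reporter control probe set and the G. raimondii actin control, 1 point per array. LYP stands apart from the other 7 arrays for Gra.207.1.A1_s_at (10.9), Ghi.8291.1.S1_s_at (58.2) and GhiAffx.29182.1.S1_at (183.6), and both parents stand apart from all 6 lines for GhiAffx.3966.1.S1_at and the reporter control.

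The rule itself asks for a brighter LYP signal among the members lower in the lines, so their LYP level is a description. LYP had at least 100 for 148 of the 209 (70.8%), against 39.0% of all tested probe sets. The median signal of the 209 was 184.7 in LYP, and the median of the lines' mean signal was 66.6. In 6 of the 209 (2.87%) every low-yield line had a signal under 16, against 1.22% of all tested. The rule used the lines' values too, so nothing is read from that difference in share.

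GhiAffx.3966.1.S1_at, a G. hirsutum design, had the largest difference on the lower side. Its signal was 1339 in LYP and 10.8, 9.8 and 1.5 in LY1, LY2 and LY3, a difference of -6.10 ± 0.18 log2 units (SD, n = 3 lines), or -7.91 with a pseudocount of 1 and -4.46 with 64. HYP had 945, a normalized difference from LYP of -1.02 log2 units, while HY1, HY2 and HY3 had 5.40, 12.2 and 1.90. The probe set was thus bright in both parents and dim in all 6 lines. It was the only member on the lower side with at least 100 in LYP and under 16 in every low-yield line.

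GhiAffx.29182.1.S1_at, also a G. hirsutum design, had 183.6 in LYP and 20.3, 10.4 and 5.30 in LY1, LY2 and LY3. HYP had 10.0 and the high-yield lines 11.4, 3.1 and 4.6. It was bright in LYP and in no other array, with a difference of -3.26 ± 0.17 log2 units (SD, n = 3 lines), or -4.50 with a pseudocount of 1 and -2.00 with 64.

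The first ranked G. raimondii design on the lower side was also the member there with the highest mean signal over the 4 arrays. It had 7903 in LYP and 315.3, 396.3 and 724.7 in LY1, LY2 and LY3, a difference of -4.32 ± 1.24 log2 units (SD, n = 3 lines). HYP had 669.2 and the high-yield lines 617.0, 290.6 and 894.1. LY3 lay closest to LYP of the 3 low-yield lines.

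Of the 29 tested probe sets designed from G. barbadense, the species of LYP, 4 were lower (13.8%) and 2 were higher (6.90%) in the lines. Over all tested probe sets 1.45% were lower and 2.29% higher. With so few designs nothing is read from these shares. Of the 4, 3 were designed from 1 sequence and share their target. The first of these had 158.6 in LYP and 16.2, 17.2 and 31.0 in LY1, LY2 and LY3. The second had 238.3 against 22.0, 7.90 and 72.9, and the third 740.6 against 105.2, 76.7 and 256.0. All of them were highest in LYP and, among the low-yield lines, least reduced in LY3. The other had 240.5 in LYP and 33.2, 52.7 and 68.5 in the lines. Being designed from the parent's species did not go with a brighter signal in that parent in every case: the first ranked G. barbadense design on the higher side had 15.9 in LYP and 963.1, 1320 and 383.7 in LY1, LY2 and LY3, with 1518 in HYP.

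The 3 lines did not depart from the parent to the same extent. LY1 was at least 2-fold above LYP for 1749 probe sets (12.1%) and below it for 1703 (11.8%). LY2 was above for 1764 (12.2%) and below for 1738 (12.1%). LY3 was above for 891 (6.18%) and below for 588 (4.08%). LY3 decided most of the membership. Of the 1004 probe sets at least 2-fold above LYP in exactly 2 lines, LY3 was the line that fell short for 812 (80.9%). Of the 1030 below LYP in exactly 2 lines, it was LY3 for 954 (92.6%). For 77 probe sets 1 line was at least 2-fold above and another at least 2-fold below LYP.

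Among the members themselves the median SD over the 3 lines was 0.44 log2 units on the higher side and 0.38 on the lower side. The median difference from LYP over the 330 was 1.93, 1.90 and 1.79 log2 units in LY1, LY2 and LY3. Over the 209 it was -1.87, -1.70 and -1.33. LY3 was the line nearest LYP for 147 of the 330 (44.5%) and for 149 of the 209 (71.3%). LY3 and LYP were the dim arrays of the 4 and LY1 and LY2 the bright ones, so that brightness moved with this order. LY1 was also the array with the highest ss1 ratio and LY3 the one with the lowest. The part of brightness and RNA integrity in it was not tested. Without normalization LY3 was above LYP for 476 probe sets and below for 1209, while LY1 was above for 5903 and below for 348 and LY2 above for 5201 and below for 511.

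**Figure D3:**
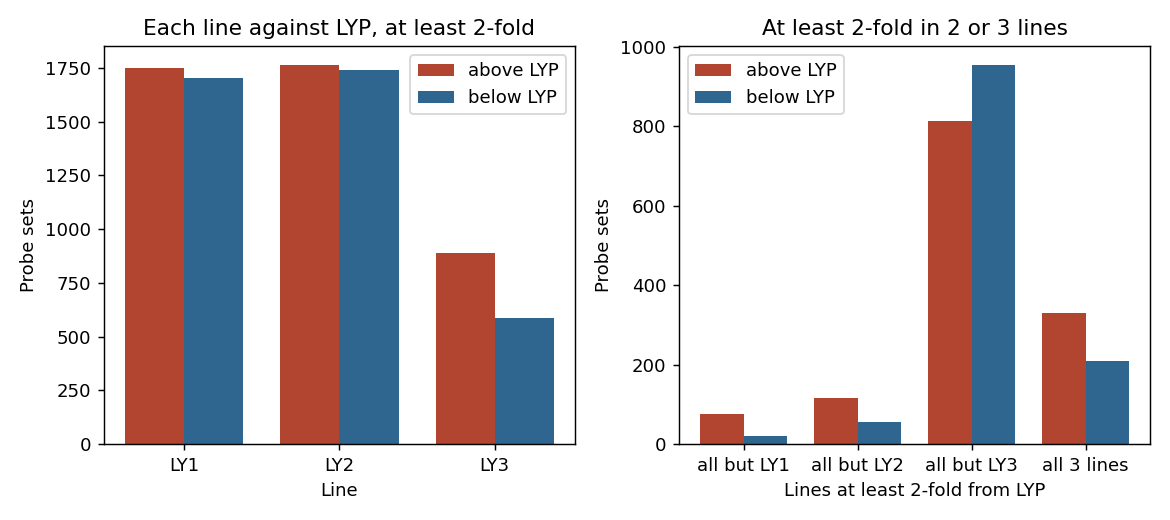
Number of probe sets at least 2-fold above or below the low-yield parent: in each line (left), and in all lines but 1 or in all 3 (right). LY3 departed from LYP for 891 and 588 probe sets where LY1 departed for 1749 and 1703, and 812 and 954 probe sets reached 2-fold in LY1 and LY2 but not in LY3.

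The members' level in the other arrays lay close to that of the low-yield lines. For the 330 higher in the lines, the median normalized log2 level was 4.99 in LYP, 7.32, 7.28 and 7.28 in LY1, LY2 and LY3, 7.46, 7.39 and 7.39 in HY1, HY2 and HY3, and 7.31 in HYP. For the 209 lower in the lines it was 7.94 in LYP, 5.77, 5.94 and 6.55 in the low-yield lines, 6.37, 6.07 and 6.72 in the high-yield lines, and 6.26 in HYP. The median over all tested probe sets was 6.54 in every array. The median difference of HYP from LYP was 1.93 log2 units over the 330 and -1.45 over the 209, against 0.03 over all tested probe sets. This comparison and the members' rule share the LYP array, so a deviation of that single array would enter both.

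HYP lay inside the range of the 3 low-yield lines for 148 of the 330, above it for 95 and below it for 87. For the 209 the counts were 108 inside, 74 above and 27 below. Over all tested probe sets HYP lay inside that range for 56.5%, above it for 25.9% and below it for 17.6%.

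**Figure D4:**
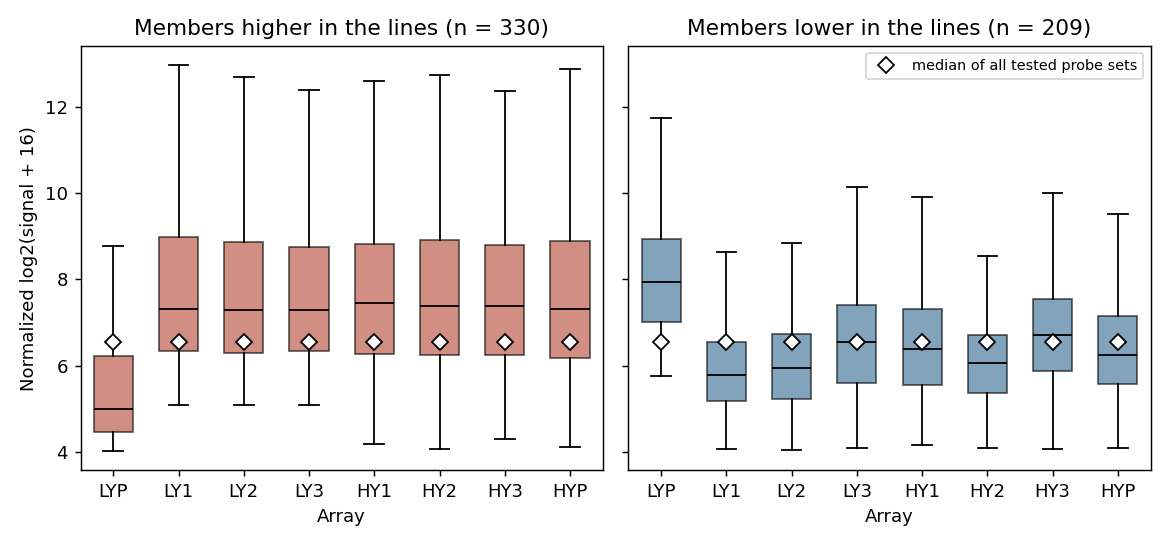
Normalized log2(signal + 16) of the members on each array (box, median and quartiles; whiskers reach the last value within 1.5 times the box), higher in the lines on the left and lower on the right, with the median of all tested probe sets as an open diamond. LYP has the lowest median in the left panel, 4.99; in the right panel LYP is highest at 7.94 and LY1 lowest at 5.77.

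The high-yield lines and their parent, arrays that the rule of membership used in the normalization and the filter alone, gave a separate view of the same probe sets. The median difference of the high-yield lines from HYP was -0.01 log2 units over the 330 and 0.05 over the 209, against -0.03 over all tested probe sets. The sign over the 209 turned without normalization (-0.23), with median centring (-0.081) and without HY3 (-0.076), and over the 330 without shared probe sets (0.0016). All 3 high-yield lines were at least 2-fold above HYP for 6 of the 330 (1.82%) and for 0 of the 209, against 0.208% of all tested probe sets. They were at least 2-fold below HYP for 0 of the 330 and 2 of the 209 (0.957%), against 0.0971% of all tested.

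Between the high-yield and the low-yield lines, the comparison with replicates on both sides, 0 of the 539 members passed in limma (lowest adjusted p among the members = 0.994, 3 lines against 3). Over all 14417 tested probe sets the number that passed was 0 as well, so this was not particular to the members. At an unadjusted p under 0.05 there were 29 members (5.38%), and 2.12% of all tested probe sets. The rule used the same values of the low-yield lines, so nothing is read from that difference in share. The high-yield lines had the higher mean for 12 of them and the lower mean for 17. That count rested on single arrays: it was 6 without LY1, 82 without LY3, 10 without HY1, 52 without HY2 and 13 without HY3. The share over all tested probe sets moved with it, from 0.506% without LY1 to 12.6% without LY3.

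In a small group of members both parents stood on the same side of the low-yield lines. For 13 of the 330 (3.94%), HYP too was at least 2-fold below all 3 low-yield lines, as it was for 0.735% of all tested probe sets. For 3 of the 209 (1.44%) it was at least 2-fold above all 3, as for 0.194% of all tested. These counts reuse the low-yield line values that the rule selected on, so nothing is read from the differences in share. The 13 had a median signal of 10.9 in LYP and 11.6 in HYP. Their median was 227.5, 109.5 and 42.9 in LY1, LY2 and LY3 and 24.8, 81.3 and 39.7 in HY1, HY2 and HY3. The 3 arrays with the highest medians for them, LY1, LY2 and HY2, were also the 3 brightest arrays of the series by median signal. By mean signal HYP (264.4) was brighter than HY2 (250.7). The part of brightness was not tested.

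One of the 13 was no cotton gene: a reporter control probe set, of which the table held 52, with 4 past the filter. Its signal was 16.3 in LYP and 21.2 in HYP. LY1, LY2 and LY3 had 8500, 1279 and 2891, and HY1, HY2 and HY3 had 962.5, 1180 and 1273. All 6 lines were bright and both parents dim, the reverse of GhiAffx.3966.1.S1_at.

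The design species of the members differed between the directions. G. hirsutum designs made up 81.7% of all tested probe sets, 300 of the 330 members higher in the lines (90.9%) and 131 of the 209 lower in the lines (62.7%). G. raimondii designs made up 17.7% of all tested probe sets. They were 27 of the 330 (8.18%) and 73 of the 209 (34.9%). The share of G. raimondii designs on the lower side was 20.2% (14.8% of the tested) without probe sets marked as shared between transcripts and 21.1% without LY3. Among the 83 members lower under all 4 scalings it was 26.5%. With median centring the share was 28.2% and without normalization 24.2%. Without normalization and without LY3 it was 19.6%. In these settings G. raimondii designs were 17.6% of the tested. The filter also mattered: the lower side had 35.6% without it (29.4% of the tested) and 39.4% with 60% left out (12.2% of the tested). On the higher side the share was 1.21% without shared probe sets. Over all 2553 tested G. raimondii designs the median difference of the lines' mean from LYP was -0.16 log2 units, and over all 11773 G. hirsutum designs it was 0.04. None of the 54 tested G. arboreum designs was a member, where 2.29% of all tested probe sets were higher and 1.45% lower. With so few designs nothing is read from that.

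The actin controls of the array, which the rule left out, differed by design species in the same sense. The 3′ G. hirsutum actin probe set had 5587 in LYP and 4606, 6518 and 4777 in LY1, LY2 and LY3, with LYP inside the range of the lines. The 3′ G. raimondii actin probe set had 615.0 in LYP and 203.1, 157.4 and 233.3 in the lines. The middle G. raimondii actin probe set had 965.1 in LYP and 205.5, 178.3 and 269.5 in the lines, and 118.0 to 270.8 on the other 4 arrays. LYP was above every other array on both G. raimondii probe sets and not on the G. hirsutum one. Actin is a protein of the cytoskeleton.

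**Figure D5:**
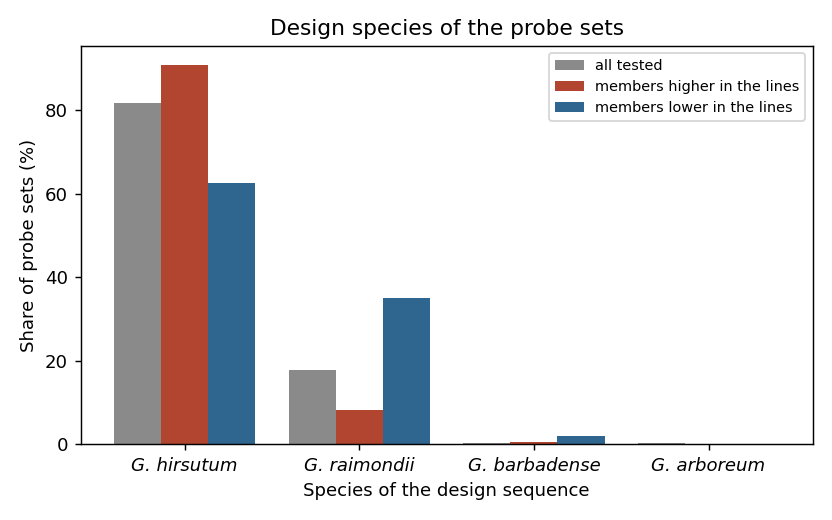
Share of probe sets (per cent, vertical axis) by the species of the design sequence, for all 14417 tested probe sets and for the members in each direction. G. raimondii designs are 17.7% of the tested probe sets, 8.18% of the members higher and 34.9% of the members lower in the lines.

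Most members came from separate design sequences. The 330 lay in 322 sequence clusters (probe sets that share the number in their identifier) and the 209 in 203. In 1 cluster, with 58 tested probe sets, 2 members were higher and 1 was lower. After the members of the same direction were taken out, the other 140 tested probe sets of the clusters on the higher side had a median difference of 0.11 log2 units. The other 107 on the lower side had -0.23. The cluster with 58 tested probe sets entered both medians and made up a large part of each set, so they say little about the other clusters. Probe sets marked as specific to 1 transcript were 165 of the 330 and 106 of the 209, against 46.5% of all tested.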

How the data were processed

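Fibre RNA of 8 cotton genotypes was hybridized to Affymetrix arrays, 1 array each. Each probe set has 1 deposited intensity per array, not log transformed. GCOS and MAS5 are the tools listed in the submitters' processing notes. Versions and the scaling target are not given in the sources used here. Groups were taken from the sample titles. The design text swaps the line names of HY1 and HY3 relative to the labels, and their group is the same either way.

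Of 24132 rows, 103 Affymetrix control rows were dropped. The other 24029 were transformed as log2(value + 16), quantile normalized over 8 arrays, and the 40% with the lowest mean left out. Without that filter 330 probe sets were higher and 222 lower. High-yield and low-yield lines were compared in limma 3.58.1, by lmFit and eBayes with trend fitted to intensity (R 4.3.3), adjusted by Benjamini-Hochberg over all 14417 probe sets. The fit was tried on simulated data with planted changes. The rule was tried on copies of the LYP values with planted 4-fold changes. Those copies had no noise, normalization or filter, so that trial says nothing about these steps. p-values measure the spread between lines with 1 array each, and the number of arrays limits the precision.

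Members and alternatives were chosen with earlier results of these data known. Members were ranked by the smallest of their 3 differences from LYP. With no gene names, identifiers of the first 2 in each direction are given, and other members are described by design species, brightness or place at the threshold. The G. barbadense cluster, the reporter control and the members with both parents on 1 side were chosen after their values were seen.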

Additional observations from a re-analysis of the deposited data

Results flagged for a closer look

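Some probe sets moved opposite ways from the parents in the low-yield and the high-yield lines, with every line of a group on the same side of its parent. These differences between groups were not tested. The first ranked G. barbadense design on the higher side was 4.41 ± 0.33 log2 units (SD, n = 3 lines) above LYP in the low-yield lines, while the high-yield lines differed from HYP by -0.59 ± 0.46. One of the 3 G. barbadense probe sets designed from a single sequence differed from LYP by -2.81 ± 1.44 log2 units in the low-yield lines. For it the high-yield lines differed from HYP by 0.72 ± 0.23. These signals were low, 5.30 in HYP and 11.3, 16.6 and 18.3 in HY1, HY2 and HY3. The other probe sets of that sequence did not repeat the opposite move, with high-yield differences of 0.22 ± 0.49 and -0.31 ± 0.74. A lower member whose identifier begins with GhirRNA differed from LYP by -1.70 ± 0.34 log2 units in the low-yield lines, and the high-yield lines differed from HYP by 0.58 ± 0.63. All 3 high-yield lines lay below HYP for 70 of the 330 members higher in the low-yield lines (21.2%), against 21.1% of all tested probe sets, and above HYP for 37 of the 209 lower ones (17.7%), against 16.2%.

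The control rows outside the comparison held a difference too. The 3 G. raimondii actin controls had signals of 615 (3′), 965 (middle) and 112 (5′) in LYP, which were 3.11, 4.43 and 2.95 times the means of the low-yield lines, and LYP was above all 7 other arrays for each. The reporter control probe set had at least 1279 in every low-yield line and 16.3 in LYP.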

How the results depend on the processing

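With a pseudocount of 1 there were 765 members higher and 369 lower, and with 64 there were 123 and 87. At a threshold of 2 log2 units there were 71 and 15, and without probe sets shared between transcripts 165 and 109. Without normalization 132 were lower. Leaving out 1 low-yield line gave 406 to 1142 higher and 229 to 1163 lower, the highest counts without LY3. Without normalization and without LY3, a setting chosen after seeing the data, 4305 were higher.

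Counts of single lines moved with the scaling and with the pseudocount. Without normalization LY1 was above LYP for 5903 and below for 348 probe sets, LY2 for 5201 and 511, and LY3 for 476 and 1209. With a pseudocount of 64 the counts were 822 and 894, 873 and 954, and 404 and 159. With a pseudocount of 1 LY2 was above for 2709 and LY3 above for 1504 and below for 1417. Median centring put LY2 above for 2715.

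Over the members higher in the lines, the median difference of the high-yield lines from HYP was -0.26 with median centring, -0.34 without normalization and -0.074 with a pseudocount of 64. Over the members lower, where it was 0.05, it turned to -0.23 without normalization, -0.081 with median centring and -0.076 without HY3, and was 0.20 without HY2. The median difference of HYP from LYP over the members higher was 2.11 with 60% left out, 2.24 with median centring, 2.29 without normalization, 2.12 and 2.05 with pseudocounts of 1 and 64, and 2.06 without shared probe sets.

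The members with an unadjusted p under 0.05 in limma between high-yield and low-yield lines numbered 5 without normalization, 6 to 82 leaving out 1 line, and 44 with the line number as a block, which left 0 past adjustment. Deviations of same-numbered lines from their group means correlated at -0.243, 0.185 and 0.54 for the numbers 1, 2 and 3. Lines of different numbers were not compared in this way, so no correlation can be tied to a shared number. The cause of these shifts and correlations was not tested. The number of arrays, 1 for LYP, and signals near background limit the precision.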

Other observations

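The 4 probe sets whose identifiers begin with GhirRNA were all brighter in LYP than in HYP. The first had 830.5 in LYP and 226.8 in HYP, with 562.3, 387.6 and 1051 in LY1, LY2 and LY3. The second had 3190 and 1040, with 2323, 1522 and 3897. The third had 137.6 and 42.5, with 93.0, 96.4 and 72.7. The fourth, a lower member, had 214.2 and 63.4, with 149.5, 127.4 and 29.7. LY3 was the highest of the low-yield lines for the first and the second and the lowest for the third and the fourth.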
